A study of Mus musculus with 384 samples.

Results

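Endocannabinoids are lipid messengers that neurons make on demand and release from their cell bodies and dendrites, from where they act back on the axon terminals that contact them. The 8 genes described here encode the main parts of that system: *Cnr1*, the CB1 cannabinoid receptor; *Dagla* and *Daglb*, the diacylglycerol lipases that make 2-arachidonoylglycerol (2-AG); *Mgll*, *Abhd6*, and *Abhd12*, the hydrolases that break 2-AG down; *Napepld*, a phospholipase that makes anandamide and related N-acylethanolamines; and *Faah*, the hydrolase that removes them. In the midbrain, CB1 is best known from the terminals of GABA and glutamate inputs, where it limits transmitter release onto DA neurons. The transcripts counted here came from the cell bodies of the sorted neurons, so they bear on what those neurons themselves transcribe.

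The genes were chosen by symbol, as 8 of the 47082 entries of the count table, and were read in the 209 of 384 cells in which at least 500000 reads were counted on genes. The cells came from 8 DAT-Cre;Ai9 mice on a C57BL6/J background, 3 labelled female and 5 labelled male, with ages of 24 to 36 days in the labels. All carried a Cre driven from the dopamine transporter locus and a tdTomato reporter that Cre switches on for good, so tdTomato marks cells that express the transporter or did so earlier. No mouse was treated. Propidium iodide-negative, tdTomato+ cells were sorted from dissociated midbrain tissue that included the hypothalamus, and each mouse was captured in a run of its own on 1 of 2 Fluidigm C1 machines, so that mouse and run cannot be told apart. The replicate is the mouse, with 12 to 45 cells each.

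On the GRCm38 assembly *Cnr1* lies on chr4:33923171-33948831 and *Faah* on the same chromosome at chr4:115996668-116018837. The synthesis genes lie at chr19:10245265-10304877 (*Dagla*), chr5:143464484-143504442 (*Daglb*), and chr5:21662901-21701622 (*Napepld*). The 2-AG hydrolases lie at chr6:88724412-88828360 (*Mgll*), chr14:8002888-8056773 (*Abhd6*), and chr2:150832493-150904779 (*Abhd12*). Counts are per gene over annotated exons, so they do not separate isoforms.

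Counted reads per cell ranged from 500672 to 1545100, and the sums per mouse from 8500224 to 32835678. Markers of DA neurons (8 listed) summed to 9261–17422 CPM by mouse, where CPM is the count of a gene scaled to a common total of counted reads. *Th* reached at least 10 reads in 94.7% of cells and *Slc6a3*, the dopamine transporter, in 98.1%, while *Pitx3* did so in 15.3%. Listed markers of astrocytes, microglia, and endothelial cells each reached 10 reads in at most 3.83% of cells, and *Slc17a7*, *Mog*, *Cspg4*, *Aif1*, *C1qa*, and *Cldn5* were listed at 0 in these cells. *Mog*, *Aif1*, and *Cldn5* have more than 1 entry in the table, so their 0 may reflect the counting. In 28 cells *Th* was under 1000 CPM. In 7 cells from 4 mice the summed astrocyte or oligodendrocyte markers reached 1000 CPM; these cells held 26.2% of all *Mgll* reads, 6.29% of *Abhd6* reads, and at most 2.57% of the reads of any other of the 8 genes.

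*Abhd12* and *Cnr1* had the highest mean levels of the 8 genes, and *Dagla* and *Mgll* the lowest. Levels of different genes were compared per kb of exon length (RPKM, the CPM of a mouse divided by the exon length in kb). *Abhd12*, which also acts on lysophosphatidylserine, had a mean of 51.6 ± 11.6 RPKM (SD, n = 8 mice) and varied least, from 33.1 to 68.4. *Cnr1* followed at 28.1 ± 14.7 RPKM. *Abhd6* and *Daglb* were alike, at 13.6 ± 7.39 and 13.3 ± 7.50 RPKM. *Faah* stood at 6.07 ± 3.35, *Napepld* at 4.33 ± 1.61, *Dagla* at 1.63 ± 0.939, and *Mgll* at 1.29 ± 1.18 RPKM. No neighbours in that order passed a test once the 7 comparisons were adjusted together. This was a two-sided exact permutation test that flips the sign of each mouse's log2 ratio (n = 8, with 0.5 added to each count). With 8 mice it reaches no unadjusted p under 0.00781, so a pair alone at that limit could not pass after adjustment. The lowest adjusted p was 0.0820, for *Abhd12* over *Cnr1* (higher in 7 of 8 mice) and for *Napepld* over *Dagla* (7 of 8 mice). *Abhd6* was above *Daglb* in 4 of 8 mice. Per kb of coding length in place of exon length, *Cnr1* came out above *Abhd12*, with a mean log2 ratio of *Abhd12* to *Cnr1* of -0.23 against 1.06.

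**Figure D1:**
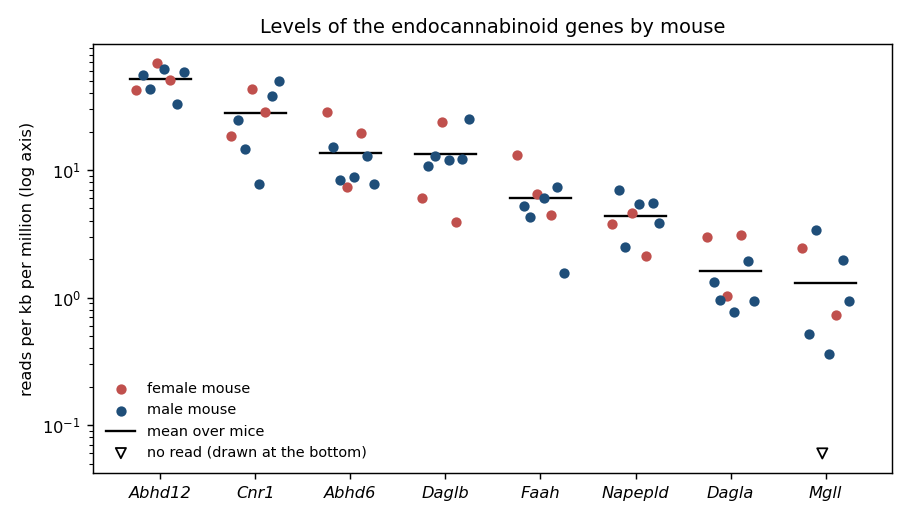
Level of each gene in each mouse as RPKM on a log axis, with genes ordered by their mean (black line), females in red, males in blue, and a value of 0 as a triangle at the bottom. *Abhd12* sits between 33.1 and 68.4 in all 8 mice, whereas *Mgll* runs from 0 in mouse 4 to 3.38.

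Within the 2-AG enzymes the order of these pairs was the same in every mouse. *Daglb* was above *Dagla* per kb in 8 of 8 mice, by a mean of 3.00 ± 1.60 on the log2 scale (range 0.34 to 4.73). *Abhd12* was above *Mgll*, usually regarded as the main 2-AG hydrolase of the brain, in 8 of 8 mice by 5.44 ± 1.47 over the 7 mice with *Mgll* reads. Mouse 4 had none, and set against 3 *Mgll* reads its log2 ratio was at least 9.84. *Abhd12* was above *Abhd6* in 8 of 8 mice by 2.06 ± 0.92. *Faah* and *Napepld* had no such order, with *Faah* higher in 6 of 8 mice by 0.38 ± 0.93. These pairs were picked by function and no test was run on them beyond that of the neighbours.

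The mice differed several-fold in most of these genes. Summed over the cells of a mouse, *Cnr1* was lowest in mouse 5 at 44.8 CPM and highest in mouse 8 at 291 CPM, with a median of 154 CPM. *Daglb* ranged from 18.1 CPM in mouse 6 to 116 CPM in mouse 8, around a median of 56.6 CPM. *Faah* was highest in mouse 1 at 50.2 CPM and lowest in mouse 8 at 5.99 CPM. *Abhd6* was highest in mouse 1 at 63.3 CPM, and *Dagla* reached 17.3 CPM in mouse 6 and 16.9 CPM in mouse 1 while the other mice stayed at or below 11.0 CPM. *Mgll* had no read in the 12 cells of mouse 4, where 3 reads would amount to 0.353 CPM. The highest mouse exceeded the lowest 2.07-fold for *Abhd12*, 3.29-fold for *Napepld*, 3.85-fold for *Abhd6*, 3.98-fold for *Dagla*, 6.39-fold for *Daglb*, 6.50-fold for *Cnr1*, and 8.38-fold for *Faah*.

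Detection followed another order than the level. A cell was called positive from 10 reads. *Abhd12* was positive in 81.8% of the 209 cells (exact binomial 95% interval 75.9 to 86.8%) and *Daglb* in 67.5% (60.7 to 73.8%). *Cnr1* was positive in 34.9% (28.5 to 41.8%), close to *Faah* at 34.4% (28.0 to 41.3%) and *Abhd6* at 34.0% (27.6 to 40.8%). *Napepld* was positive in 25.4% (19.6 to 31.8%), *Dagla* in 15.8% (11.1 to 21.5%), and *Mgll* in 12.0% (7.89 to 17.1%). These intervals cover counting error only. After each cell was thinned to 500000 reads, the shares were 77.5% for *Abhd12*, 62.2% for *Daglb*, 34.4% for *Cnr1*, 31.1% for *Abhd6*, 25.4% for *Faah*, 21.5% for *Napepld*, 11.5% for *Dagla*, and 9.57% for *Mgll*.

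**Figure D2:**
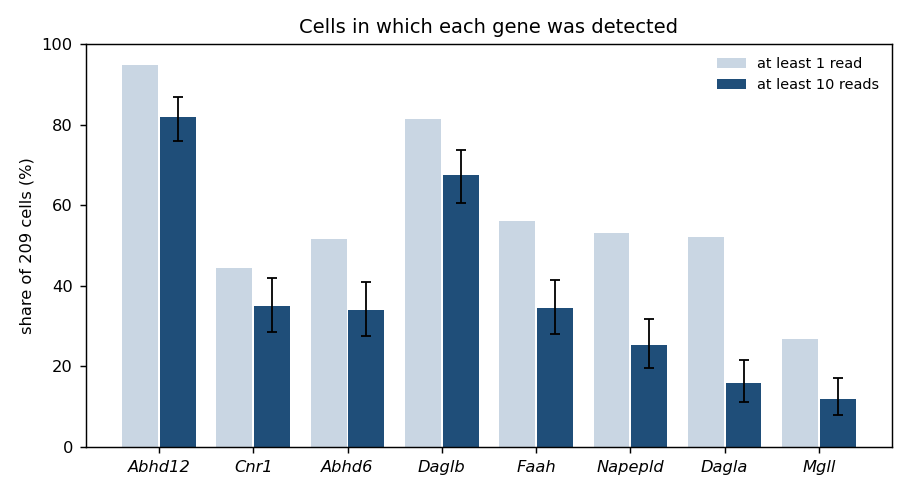
Share of the 209 cells with at least 1 read (pale bars) and at least 10 reads (dark bars) of each gene, in percent, with exact binomial 95% intervals on the dark bars. *Abhd12* and *Daglb* stand above 60% at 10 reads, and *Cnr1*, *Abhd6*, and *Faah* lie near 34%.

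*Cnr1* reads were unevenly spread over the cells, and a cell without a read may still hold the transcript. *Cnr1* had no read in 116 cells, 1 to 9 reads in 20, and at least 10 reads in 73. In the positive cells its median was 254 CPM, with a lowest value of 7.24 CPM and a highest of 1810 CPM. The 10 cells with most *Cnr1* reads, 4.78% of the cells, held 36.7% of them, against 17.6% for *Abhd12* and 64.3% for *Mgll*. For comparison, the medians in positive cells were 101 CPM for *Abhd12*, 65.7 CPM for *Daglb*, 64.7 CPM for *Abhd6*, 50.0 CPM for *Napepld*, 39.4 CPM for *Faah*, 29.7 CPM for *Mgll*, and 26.5 CPM for *Dagla*. A fall in one gene's level for a mouse can mean fewer cells with the transcript or fewer reads per cell, and for *Cnr1* the cells themselves can be counted: the share of positive cells ran from 11.1% of 45 cells in mouse 3 to 55.9% of 34 cells in mouse 2.

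Enzymes of 2-AG were positive in most cells. At least 1 of *Dagla* and *Daglb* was positive in 72.7% of cells (66.2 to 78.6%), and at least 1 of the 3 hydrolases in 88.0% (82.9 to 92.1%). *Daglb* alone was positive in 119 cells, *Dagla* alone in 11, both in 22, and neither in 57. *Mgll* was positive without *Abhd12* in 3 cells. On the anandamide side, *Faah* alone was positive in 57 cells, *Napepld* alone in 38, both in 15, and neither in 99. The most frequent number of positive genes among the 8 was 3, in 68 cells; 6 cells had none and 1 cell had 6.

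The first question was how *Cnr1* relates to the capacity of DA neurons to release glutamate. *Slc17a6* encodes VGLUT2, the vesicular glutamate transporter of subcortical neurons, and 113 of the 209 cells were positive for it. *Cnr1* was positive in 54.9% of *Slc17a6*+ cells (45.2 to 64.3%) and in 11.5% of *Slc17a6*- cells (5.86 to 19.6%). By mouse, the share in *Slc17a6*+ cells was lowest in mouse 3 at 33.3%, had a mean of 54.3% ± 10.1, and was highest in mouse 2 at 66.7%. In *Slc17a6*- cells no cell was positive in mice 4 and 6. The share there reached 3.03% in mouse 3, 5.26% in mouse 5, 11.1% in mouse 1, 22.2% in mouse 7, 30.0% in mouse 2, and 60.0% in mouse 8. It was higher in *Slc17a6*+ cells in 7 of 8 mice, by a mean of 37.8 ± 22.8 percentage points; mouse 8 went the other way by 10.0 points, with 8 of 16 against 3 of 5 cells. The exact sign-flip permutation test gave p = 0.0156, or 0.0625 when adjusted over the 4 classes tested, which misses 0.05. The call turned with the limits: with cells from 250000 reads (40.4 points) or with positive cells from 1 read (41.9 points), all 8 mice were higher in *Slc17a6*+ cells and the adjusted p was 0.0312. Both classes had similar depth, with medians of 787466 and 754798 reads per cell. The 3 GABA markers summed to 2.12–1119 CPM by mouse in *Slc17a6*+ and 1.67–642 CPM in *Slc17a6*- cells, with pooled levels of 416 and 46.1 CPM for *Gad2* and 6.92 and 0.279 CPM for *Slc32a1*, the vesicular GABA transporter. *Mbp*, listed as an oligodendrocyte marker, reached 10 reads in 38.1% and 13.5% of cells, and the 6 oligodendrocyte markers summed to 14.7–99.7 and 0–2957 CPM. The part of these markers in the *Cnr1* difference was not tested. *Slc17a6*- cells of mice 4 and 6 numbered 4 and 7, so that a share of 0 in them does not show absence. The gap averaged 27.1 points in 5 males and 55.6 points in 3 females (exact permutation test, p = 0.0893).

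The summed level of *Cnr1* pointed the same way without passing the test across all genes. It was 249 ± 93.1 CPM in *Slc17a6*+ cells and 62.2 ± 129 CPM in *Slc17a6*- cells (n = 8 mice). In *Slc17a6*+ cells it ranged from 82.1 CPM in mouse 5 to 376 CPM in mouse 4, with a median of 273 CPM. In *Slc17a6*- cells the median was 14.7 CPM, with no read in mouse 4 and 378 CPM in mouse 8. Mouse 8 alone made the groups overlap, since the next highest *Slc17a6*- value was 53.9 CPM. The log2 fold change in edgeR was 1.97 ± 0.92 (SE), with an adjusted p of 0.756; without mouse 8 it was 3.77 with an adjusted p of 0.181, and with the mouse as a block 3.83 with an adjusted p of 0.379. None of the 8 genes passed the edgeR test between these classes, where 0.0163% of the other 12278 genes did, namely *Nrp2* and *Htr2c* (4 genes with the block). In DESeq2 also 0 of the 8 passed, against 0.465% of genes. At an unadjusted p under 0.05 edgeR had 1 of the 8, *Cnr1*, against 803 of all 12278 genes.

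**Figure D3:**
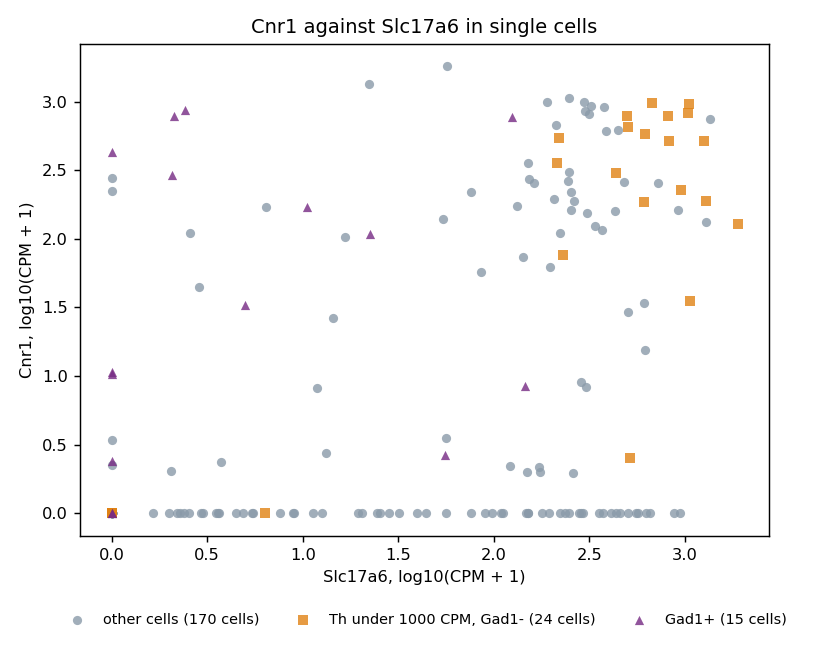
Level of *Cnr1* against *Slc17a6* in each of 209 cells, both as log10(CPM + 1), with *Gad1*+ cells as triangles, other cells with *Th* under 1000 CPM as squares, and the rest as circles; cells at 0 for both genes lie on top of each other. Of the 73 *Cnr1*+ cells, 62 were *Slc17a6*+, and 6 of the 8 *Gad1*+ cells positive for *Cnr1* were *Slc17a6*-. The cells ranked 1 and 2 for *Cnr1*, at 1810 and 1354 CPM, had only 56.1 and 21.1 CPM of *Slc17a6*.

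*Gad1*, which encodes the GABA-synthesizing enzyme GAD67, was positive in 15 cells. *Cnr1* was positive in 8 of them, 53.3%, and in 33.5% of the 194 *Gad1*- cells. At least 3 cells of each class were present in 3 mice, where the share was higher in *Gad1*+ cells in mice 7 and 8 and equal in mouse 1; the mean difference was 18.8 ± 16.3 points (exact sign-flip permutation p = 0.5, where 3 mice can reach no lower than 0.250). The summed level was 47.1, 293, and 478 CPM in *Gad1*+ cells of mice 1, 7, and 8 and 134, 209, and 249 CPM in their *Gad1*- cells, so the classes overlapped. The log2 fold change was 0.49 ± 0.72, with an adjusted p of 0.971 in edgeR. In this comparison 0 of the 8 genes passed in edgeR, as did 0% of the other genes tested (856 of 12037 had an unadjusted p under 0.05, none of them a member), and 0 of 8 passed in DESeq2, where 2.64% of genes did.

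Read together, the transmitter genes split the cells into unequal *Cnr1* classes; this cross-count was made after the values had been seen and was not tested. Of the 85 cells negative for both *Slc17a6* and *Gad1*, 5 were *Cnr1*+, or 5.88% (1.94 to 13.2%), with a pooled level of 10.6 CPM. Of the 109 cells with *Slc17a6* alone, 60 were *Cnr1*+, or 55.0% (45.2 to 64.6%), with a pooled level of 228 CPM. Of the 11 cells with *Gad1* alone, 6 were *Cnr1*+, or 54.5% (23.4 to 83.3%), at 252 CPM, and of the 4 with both genes, 2 were. Put the other way, 68 of the 73 *Cnr1*+ cells (93.2%) were positive for *Slc17a6* or *Gad1*, compared with 56 of 136 *Cnr1*- cells (41.2%). In mouse 8, whose *Slc17a6*- cells ran against the other mice, the 3 *Cnr1*+ cells among 5 were the 3 that were *Gad1*+, at a pooled 688 CPM, and the other 2 had no *Cnr1* read. The class negative for both genes was represented in all 8 mice, and its share of *Cnr1*+ cells ran from 0% in mice 1, 4, 6, and 8 to 22.2% of 9 cells in mouse 2.

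*Cnr1* was also counted by the level of *Th*, the gene of the rate-limiting enzyme of dopamine synthesis, in a split made after the values had been seen and not tested itself. Of the 28 cells with *Th* under 1000 CPM, 19 were *Cnr1*+, or 67.9% (47.6 to 84.1%), against 54 of the 181 other cells, or 29.8% (23.3 to 37.1%). Those 19 split by *Slc17a6*: 18 of 20 *Th*-poor *Slc17a6*+ cells were *Cnr1*+ (90.0%, 68.3 to 98.8%), and 1 of 8 *Th*-poor *Slc17a6*- cells. Among the 181 *Th*-rich cells the shares were 47.3% of 93 *Slc17a6*+ cells and 11.4% of 88 *Slc17a6*- cells. The gap between *Slc17a6* classes was 28.7 percentage points over 8 mice in the *Th*-rich cells alone (exact sign-flip permutation p = 0.0156, adjusted 0.0234 over the 3 classes with enough mice). *Th*-poor cells were unevenly spread, with 7 in mouse 1 and 1 each in mice 3 and 8. Spearman's rho of *Th* and *Cnr1* was -0.10 across the 209 cells and 0.14 across the 181 *Th*-rich cells. *Slc6a3* and *Cnr1* ran opposite ways across the 209 cells (rho -0.43); the cells share mice and capture runs, so these are descriptions. Pooled *Slc6a3* stood at 1981 CPM in *Cnr1*+ cells and 3681 CPM in *Cnr1*- cells.

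*Neurod6* and *Grp* mark overlapping groups of ventral DA neurons, and the next question was whether *Cnr1* goes with either. *Neurod6* encodes a transcription factor of the NeuroD family and *Grp* the gastrin-releasing peptide. *Cnr1* was positive in 29 of 49 *Neurod6*+ cells, 59.2% (44.2 to 73.0%), and in 44 of 160 *Neurod6*- cells, 27.5% (20.7 to 35.1%). Among *Neurod6*+ cells, the share by mouse was 50.0% in 3, 5, and 7, 60.0% in 2, 66.7% in 1, and 70.0% in 8. Among *Neurod6*- cells it ran from 2.70% in mouse 3 to 54.2% in mouse 2. It was higher with *Neurod6* in 6 of 6 mice, by a mean of 27.7 ± 15.7 points, with the smallest gap in mouse 2 at 5.83 points. Mouse 2 turned to -1.98 points with positive cells from 1 read and to -18.6 points from 50 reads. The exact sign-flip permutation p was 0.0312, the lowest that 6 mice allow, and 0.0625 when adjusted over the 4 classes, which misses 0.05. In *Th*-rich cells alone, an alternative added after the data had been seen, the difference was 32.3 points, positive in 6 of 6 mice. There the exact sign-flip permutation p was 0.0312, and also 0.0312 when adjusted over 3 classes. Median depth was 810187 reads in *Neurod6*+ cells and 757772 in *Neurod6*- cells.

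The level of *Cnr1* separated the *Neurod6* classes less than its detection did. It was 204 ± 126 CPM in *Neurod6*+ and 126 ± 82.8 CPM in *Neurod6*- cells (n = 6 mice). *Neurod6*+ cells were higher in mice 2, 3, 5, and 8, at 151, 329, 72.9, and 381 CPM against 138, 33.7, 39.2, and 200 CPM. They were lower in mice 1 and 7, at 92.1 and 196 CPM against 110 and 237 CPM, so the classes overlapped. The log2 fold change was 0.75 ± 0.51 in edgeR (adjusted p = 0.947), and 0.35 without mouse 3 (adjusted p = 0.994). It was 0.16 in cells of at least 750000 reads (4 mice) and 1.23 in *Th*-rich cells. None of the 8 genes passed in edgeR, where 0.0476% of other genes did (6 genes, and 0 with the mouse as a block), or in DESeq2, where 0.999% did. Within *Slc17a6*+ cells, 25 of 39 with *Neurod6* (64.1%) and 37 of 74 without it (50.0%) were *Cnr1*+, and within *Slc17a6*- cells 4 of 10 (40.0%) and 7 of 86 (8.14%); these counts were not tested.

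*Grp* status gave no clear separation of *Cnr1*. The share of *Cnr1*+ cells was 45.5% of 77 *Grp*+ cells and 28.8% of 132 *Grp*- cells. Over 7 mice the difference was 10.7 ± 17.4 points, higher in *Grp*+ cells in 5 of 7 (exact sign-flip permutation p = 0.172, adjusted 0.229). The summed level leaned the other way, at 122 ± 114 CPM in *Grp*+ and 164 ± 87.3 CPM in *Grp*- cells, with a log2 fold change of -0.43 ± 0.54 (edgeR, adjusted p = 0.999) and *Grp*+ cells higher in 2 of 7 mice, mice 2 and 8. In mouse 6 the gap was widest, 37.3 against 281 CPM, and without that mouse the fold change was -0.09 (adjusted p = 1.000). In *Th*-rich cells alone, an alternative added after the data had been seen, the fold change turned to 0.51 (adjusted p = 1.000) and the detection difference was 20.8 points, positive in all 7 mice (exact sign-flip permutation p = 0.0156, adjusted 0.0234 over 3 classes). Of the 28 *Th*-poor cells, 26 were negative for both *Neurod6* and *Grp*, and 17 of those were *Cnr1*+. None of the 8 genes passed in edgeR between the *Grp* classes, as did 0% of other genes (738 of 12517 had an unadjusted p under 0.05), and none in DESeq2, where 0.424% did.

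Cross-counts of both genes are given as a description. *Cnr1* was positive in 25 of 43 cells with both genes, 58.1% (42.1 to 73.0%), and in 4 of 6 with *Neurod6* alone. It was positive in 10 of 34 cells with *Grp* alone, 29.4% (15.1 to 47.5%), and in 34 of 126 cells with neither, 27.0% (19.5 to 35.6%). Mouse 2 supplied 6 of the 10 *Cnr1*+ cells that had *Grp* alone. Pooled levels were 198 CPM with both genes, 413 CPM in the 6 cells with *Neurod6* alone (1 of them at 1810 CPM), 79.1 CPM with *Grp* alone, and 128 CPM with neither. None of these classes was tested against another.

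**Figure D4:**
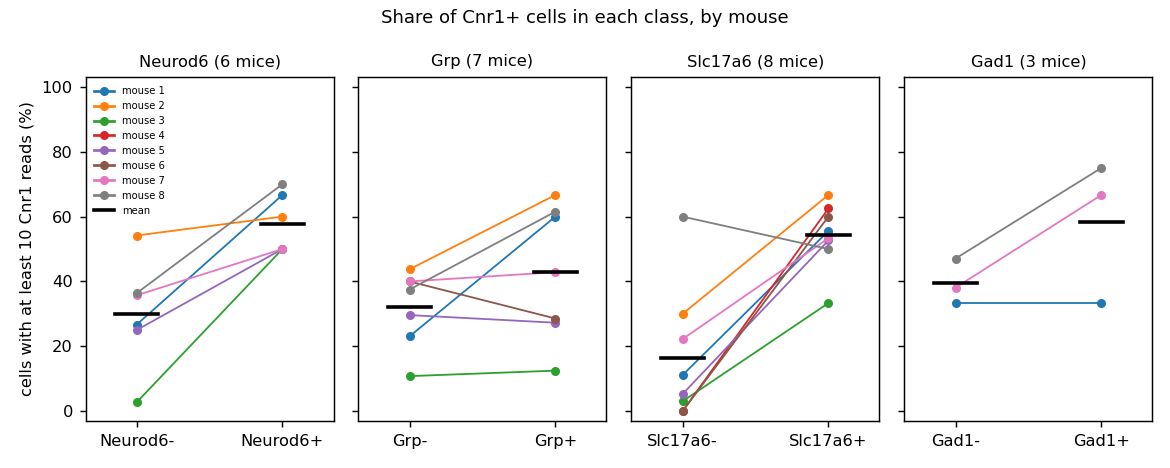
Share of cells with at least 10 *Cnr1* reads (percent) in negative and positive cells for each class gene, with 1 line per mouse that had at least 3 cells of both classes and a black bar at the mean. The positive class is higher in 6 of 6 mice for *Neurod6*, 7 of 8 for *Slc17a6*, and 5 of 7 for *Grp*.

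The 7 enzyme genes showed no difference past the test in any of these classes, and what they showed short of it is given here as values. At an unadjusted p under 0.05 there was 1 of the 8 between *Neurod6* classes, against 780 of 12605 genes, and 2 of the 8 between *Grp* classes, against 738 of 12517. *Napepld* was among them in both comparisons. Its level was 28.6 CPM in *Neurod6*+ against 12.3 CPM in *Neurod6*- cells, higher in 5 of 6 mice (log2 fold change 1.28 ± 0.57, edgeR adjusted p = 0.783), and 23.2 against 9.54 CPM between *Grp*+ and *Grp*- cells, higher in 5 of 7 mice (1.32 ± 0.57, adjusted p = 0.815). *Napepld* was positive in 39.5% of cells with both *Neurod6* and *Grp*, 35.3% with *Grp* alone, 33.3% of the 6 with *Neurod6* alone, and 17.5% with neither. *Abhd6* was 18.6 CPM in *Grp*+ and 42.0 CPM in *Grp*- cells, lower in *Grp*+ cells in 6 of 7 mice (-1.12 ± 0.51, adjusted p = 0.830). *Mgll* had fold changes of 1.49 ± 0.97 for *Neurod6* and 1.36 ± 0.92 for *Grp*, on a mean of only 6.11 CPM over all cells.

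Fold changes of the other enzymes between *Slc17a6* classes were small or wide. *Dagla* was 13.1 CPM in *Slc17a6*+ and 5.08 CPM in *Slc17a6*- cells (log2 fold change 1.26 ± 0.61, edgeR adjusted p = 0.767), higher in 5 of 8 mice. *Faah* was level, at 23.7 and 22.3 CPM (0.01 ± 0.66). *Abhd12* was the most tightly estimated, at -0.17 ± 0.22, and *Daglb* stood at 0.29 ± 0.47. Across the 209 cells, the enzyme most opposed to *Slc17a6* was *Mgll* (Spearman's rho -0.28). *Mgll* was positive in 6.42% of cells with *Slc17a6* alone and 18.8% of cells with neither transmitter gene. *Faah* was positive in 27.5% and 44.7% of those cells. By mouse, *Mgll* had a log2 fold change of -0.37 ± 0.96 and was higher in *Slc17a6*+ cells in 4 of 8 mice. Mouse 3 held 12 of the 25 *Mgll*+ cells and 33 of the 85 cells with neither gene, so these pooled shares do not separate class from mouse. Between *Gad1* classes, where 3 mice entered, the fold changes of the enzymes ran from -1.07 ± 0.99 for *Daglb*, lower in *Gad1*+ cells in 3 of 3 mice, to 0.64 ± 1.71 for *Mgll*.

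**Figure D5:**
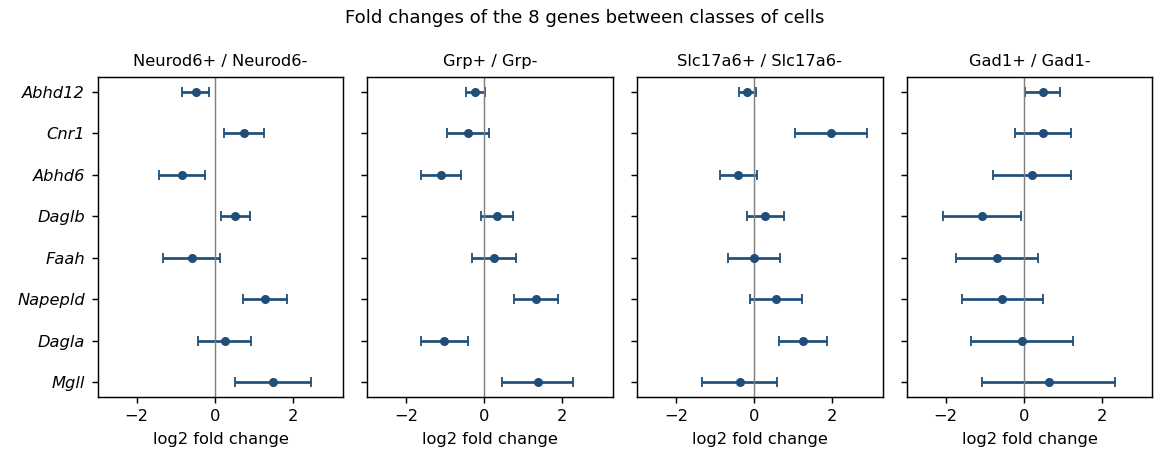
Log2 fold change of each gene between positive and negative cells for *Neurod6*, *Grp*, *Slc17a6*, and *Gad1*, from edgeR on counts summed per mouse; bars are standard errors. *Cnr1* between *Slc17a6* classes, at 1.97 ± 0.92, lies farthest from 0, and no value passed the adjusted test.

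A further comparison asked which genes go with *Cnr1* itself. With cells divided at 10 *Cnr1* reads, 73 positive and 136 negative cells from 8 mice were summed per mouse. In edgeR without a block, 0% of the other 12307 genes passed (960 had an unadjusted p under 0.05, and the lowest adjusted p was 0.0621, for *Resp18*), and in DESeq2 0.870% did, or 105 genes. Both classes came from the same mice, and with the mouse as a block 17 genes passed, or 0.138%. Of the other 7 endocannabinoid genes 0 passed in any of these tests, including at an unadjusted p under 0.05.

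All 17 genes moved the same way in 8 of 8 mice, 12 of them higher in *Cnr1*+ cells. *Scg2*, which encodes a granin of secretory granules, stood at 3990 ± 1018 CPM in *Cnr1*+ and 2065 ± 527 CPM in *Cnr1*- cells, a blocked log2 fold change of 0.93 ± 0.09 (edgeR adjusted p = 0.00316). *Resp18*, a protein of the secretory pathway in neuroendocrine cells, stood at 2330 ± 570 and 1158 ± 253 CPM (0.98 ± 0.14, adjusted p = 0.0215). *Scg3*, another granin, changed by 0.61 ± 0.10 (adjusted p = 0.0456). The largest blocked changes were those of *Tac1*, the substance P precursor, at 7.73 ± 0.93 (adjusted p = 0.0110), and *Nos1*, neuronal nitric oxide synthase, at 4.20 ± 0.35 (adjusted p = 0.000691). *Tac1* ranged from 0.263 to 3083 CPM over the *Cnr1*+ classes of the 8 mice, and it was filtered out as too low when the *Th*-poor cells were removed. The unblocked log2 fold change of *Nos1* was 4.19 in all cells and 2.98 in *Th*-rich cells, and it passed in neither in edgeR, whereas DESeq2 without a block called it in all cells (adjusted p = 0.000635). Also unblocked, *Scg2* went from 0.93 in all cells to 0.61 in *Th*-rich cells and *Zcchc12* from 0.54 to 0.24. *Gpx3*, *Ly6e*, *Elmo1*, *Lrpap1*, *Erp29*, *Zcchc12*, and *Nap1l5* were the others that rose, by 0.50 to 1.78.

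The 5 genes that were lower in *Cnr1*+ cells with the mouse as a block were *Lix1*, *Cplx1*, *Cadm2*, *Nrip3*, and *Chst2*. *Cplx1*, which encodes a complexin that controls vesicle fusion, fell by 2.09 ± 0.28 on the log2 scale (edgeR adjusted p = 0.0195), from 1382 ± 646 CPM in *Cnr1*- cells to 393 ± 343 CPM in *Cnr1*+ cells. *Lix1* fell by 2.64 ± 0.35 (adjusted p = 0.0195), from 223 ± 134 to 40.7 ± 33.8 CPM. *Mbp* reached 10 reads in 50.7% of *Cnr1*+ and 14.0% of *Cnr1*- cells, while *Mog* was at 0. The 6 oligodendrocyte markers summed to 7.02–136 CPM in *Cnr1*+ and 4.24–2428 CPM in *Cnr1*- cells by mouse, and the 3 GABA markers to 1.82–622 and 3.56–1396 CPM. Their part in these results was not tested.

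By single cells, the genes most like *Cnr1* among 10415 genes were *Fxyd6* (Spearman's rho 0.58), *Resp18* (0.58), *Sorcs3* (0.56), *Gpx3* (0.56), and *Scg2* (0.56), over 209 cells and with log2(CPM + 1) values. In the 181 *Th*-rich cells the same 5 had values of 0.48 to 0.54. *Fxyd6*, which encodes a regulator of the sodium-potassium pump, was positive in 100% of *Cnr1*+ and 51.5% of *Cnr1*- cells. *Sorcs3*, a sorting receptor, was positive in 72.6% and 22.8%. *Slc17a6* ranked 10 at 0.53, *Neurod6* 202 at 0.28, *Grp* 603 at 0.18, and *Slc6a3* 10394 at -0.43. Correlation of *Cnr1* with total reads was 0.07. None of the 7 enzymes exceeded 0.13 with *Cnr1*, the value of *Daglb*, and *Mgll* was lowest at -0.20.

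Other genes of the pathway were followed as a list of 42, of which 38 had reads and 21 reached 10 reads in at least 10% of the cells. None passed the edgeR test in any comparison, in which 23 to 27 of them could be tested. At an unadjusted p under 0.05 there were 6 of 24 between *Cnr1*+ and *Cnr1*- cells, against 960 of 12307 genes. Between *Neurod6* classes there was 1 of 25 (780 of 12605 genes), and between *Grp* classes 1 of 24 (738 of 12517). *Slc17a6* classes had 2 of 23 (803 of 12278), *Gad1* classes 0 of 23 (856 of 12037), and the sexes 1 of 27 (1261 of 15529). Among receptors and their partners, *Cnr2*, the CB2 receptor, averaged 6.75 ± 2.31 CPM and was positive in 15.8% of cells. *Sgip1* and *Cnrip1*, which encode proteins that bind CB1, averaged 185 ± 34.8 and 123 ± 23.6 CPM and were positive in 97.6% and 88.5% of cells, against 34.9% for *Cnr1*. Upstream of 2-AG, the phospholipase *Ddhd2* averaged 362 ± 73.8 CPM, *Plcb4*, a phospholipase C, 309 ± 85.6 CPM, and the glutamate receptor *Grm5* 101 ± 30.2 CPM. *Gde1*, of another N-acylethanolamine pathway, averaged 272 ± 71.6 CPM, and *Hrasls* and *Pla2g4e* 40.3 ± 11.5 and 23.3 ± 24.6 CPM. Among other breakdown enzymes, *Naaa*, an N-acylethanolamine hydrolase, averaged 18.5 ± 12.6 CPM and *Abhd2*, another 2-AG hydrolase, 4.78 ± 5.14 CPM. The carriers *Scp2* and *Fabp5* averaged 135 ± 37.0 and 77.1 ± 25.7 CPM, and the G protein subunits *Gnao1*, *Gnai1*, and *Gnai2* 259 ± 49.4, 119 ± 30.5, and 77.8 ± 30.8 CPM. *Hrasls5*, *Alox15*, *Fabp3*, and *Arrb2* were listed at 0 in every cell, and of these *Alox15*, *Fabp3*, and *Arrb2* have more than 1 entry in the table. CPM values of different genes in this paragraph are not per length and set no order between genes.

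The sexes were compared because the study included both. None of the 8 genes passed between 5 males and 3 females in edgeR, where 0.0322% of 15529 genes did, or in DESeq2, where 1.27% did. At an unadjusted p under 0.05 edgeR had 0 of the 8, against 1261 of 15529 genes. The male mean of *Cnr1* was 156 ± 99.9 CPM and the female mean 174 ± 72.2 CPM (log2 fold change -0.14 ± 0.54, edgeR adjusted p = 0.979). The largest difference was that of *Dagla*, with means of 6.69 ± 2.65 CPM (male) and 13.3 ± 6.54 CPM (female) (-0.96 ± 0.56, adjusted p = 0.709). Values of males and females overlapped for all 8 genes. Males had deeper sums than females, 18665286–32835678 against 8500224–14549953 reads. On the machine that ran both sexes, with 2 males and 3 females, the *Cnr1* fold change was 0.05 (adjusted p = 1.000), and that of *Dagla* -0.51.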

How the data were processed

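Raw read counts per gene and cell were deposited by the authors, whose pipeline was Trimmomatic 0.3.2 for trimming, TopHat2 2.1.1 for alignment to GRCm38, and featureCounts 1.5.0-p3 for RefSeq genes, leaving out reads on more than 1 gene. The kit marks no strand. In RefSeq, *Dagla*, *Mgll*, *Napepld*, *Abhd6*, and *Abhd12* overlap other entries, so their reads may be undercounted. All columns were matched to samples; 5721 entries without values, 14607 at 0, and 94 spike-in or transgene entries (0.00325% of reads) were left out. Deposited metrics without cell names were not used. Groups followed the label of the C1 run, 1 per mouse; the series text gives other numbers of each sex and a narrower range of ages.

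The 8 genes, classes, and lists were chosen with earlier results of these data known; named genes were the members, class genes, the pathway list, genes past the *Cnr1* test (10 at most per direction, at least 10 CPM, same direction in every mouse; all 17 of the blocked fit are named), and the 5 genes most like *Cnr1* among those with 10 reads in at least 10% of cells. Cells with at least 500000 reads were kept. Sums of counts per mouse and class, for mice with 3 or more cells of both, went into edgeR 4.0.16 (TMM, filterByExpr, quasi-likelihood, Benjamini-Hochberg, threshold 0.05) in R 4.3.3; SE was the fold change over the square root of F. The edgeR script and DESeq2 1.42.0, the other tool, were tested on simulated data. Those data held no mouse effect and were fitted without a block, so the blocked fit was not tested in this way. Where the comparisons of *Neurod6*, *Grp*, *Slc17a6*, and *Gad1* classes are set side by side, they share cells. Because both classes come from the same mice, the mouse was tried as a block; correlations between a mouse's classes, after class means were removed, were 0.0246–0.339. Exon and coding lengths came from GENCODE transcripts with a RefSeq match. Alternatives covered depth, the positive limit, thinning, low-count filters, scaling, class size, and leaving out each mouse. Precision is limited by 12 to 45 cells per mouse. 1 marker gene is not reported here.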

Additional observations from a re-analysis of the deposited data

Results flagged for a closer look

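Of 22 groups of mice examined, 2 held a value far from the rest by Dixon's criterion; chance alone gives about 1 in 20. *Cnr1* in *Slc17a6*- cells stood at 378 CPM in mouse 8, while the other 7 mice lay between 0 and 53.9 CPM. That class held 5 cells in mouse 8, of which 3 were *Gad1*+ and carried the *Cnr1* reads. *Daglb* in males stood at 116 CPM in mouse 8, with the other 4 males between 49.6 and 59.6 CPM. Mouse 4, a female, had 110 CPM of *Daglb*.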

How the results depend on the processing

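In levels, none of the 8 genes passed between *Neurod6*, *Grp*, *Slc17a6*, or *Gad1* classes or between the sexes under any alternative run; for *Gad1* classes, limits of 750000 reads or 5 cells left too few mice. With the mouse as a replicate block, the log2 fold change of *Cnr1* was 0.78 for *Neurod6*, -0.74 for *Grp*, 3.83 for *Slc17a6*, and 0.03 for *Gad1*; the block changed no call among the 8 genes, but moved the number of other genes past the test from 6 to 0 for *Neurod6*, from 2 to 4 for *Slc17a6*, and for *Cnr1*+ against *Cnr1*- cells from 0 to 17. Other counts there were 105 with DESeq2, 2 with library size only (*Resp18*, *Ly6e*), 7 in cells of at least 250000 reads, 2 at 750000 (*Rasl11b*, *Aldh1a7*), 7 with positive cells from 1 read and 6 from 50, 1 after thinning to 500000 (*Resp18*), 1 in *Th*-rich cells (*Crispld1*), and 0 to 3 with each mouse left out (3 without mouse 1, 2 without mouse 3 or 4, 1 without mouse 7, 0 without any other). Over all alternatives the *Cnr1* fold change ran from 0.16 to 1.23 for *Neurod6*, -0.79 to 0.51 for *Grp*, 1.53 to 3.83 for *Slc17a6*, and 0.03 to 0.81 for *Gad1*. In detection, the *Slc17a6* difference ran from 28.7 to 44.6 points; its adjusted exact permutation p was 0.0312 from 250000 reads and with positives from 1 read, 0.0625 when thinned, and, over only 3 classes, 0.0469 from 50 reads and 0.0938 from 750000 reads or with 5 cells in each class. In *Th*-rich cells, over 3 classes, the adjusted exact permutation p was 0.0234 for *Slc17a6* and *Grp* and 0.0312 for *Neurod6*. There *Cnr1* between *Grp* classes reversed to 0.51, and its detection difference was 20.8 points with an unadjusted p of 0.0156 by the exact permutation test, against 0.172 in all cells. The *Neurod6* detection difference, which had an unadjusted p of 0.0312 (exact permutation test) and did not pass after adjustment in all cells, had an unadjusted p above 0.05 at 23.5 points from 50 reads (5 of 6 mice). It was 24.5 points in cells of at least 750000 reads (4 mice), 25.2 with at least 5 cells in each class (5 mice), and 23.8 to 32.0 with each mouse left out, where so few mice cannot reach an unadjusted p under 0.05 in the exact permutation test. For the order of levels, 2 of 7 neighbours passed with coding length and 2 in cells of at least 750000 reads, in place of 0. Coding length turned the log2 ratios of *Abhd12* to *Cnr1* to -0.23, *Faah* to *Napepld* to -0.13, and *Dagla* to *Mgll* to -0.13. *Abhd6* to *Daglb* turned to -0.048 from 250000 reads, -0.50 from 750000, -0.22 without mouse 1, and -0.23 without mouse 6, and reached 0.34 without mouse 8. The cause of these changes was not tested.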
